A study of Mus musculus with 20 samples.

Results

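The comparison described here is that of sedentary hindlimb muscle labelled as lacking BMAL1 with sedentary muscle of vehicle controls, across all genes. It uses 10 of the 20 RNA-sequencing libraries of the study, 5 labelled iMSBmal1KO Control and 5 labelled Vehicle Control, chosen by these titles alone. All mice of both groups carried Cre recombinase and a floxed Bmal1 gene (genotype Cre+:iMSBmal1 fl/fl), so the vehicle mice also had both alleles, and the groups differed by vehicle or knockout; neither group was exercised. The remaining 10 libraries came from vehicle and knockout mice trained daily on a treadmill over 6 weeks and are used only where stated. The labels disagree on the muscle, since the source field and the design give the gastrocnemius and the tissue field gives the tibialis anterior. Collection is labelled as 48 hours post, while the design gives 47 hours after the last bout of exercise, which the sedentary mice did not have. In the mouse line known by this name, Cre is active in skeletal muscle fibres and is switched on by an injected drug. The labels name neither the promoter, the drug nor the age or sex of the mice. They do not say that the libraries came from separate mice, so p-values measure the spread between libraries.

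BMAL1 is the transcription factor that, as a pair with CLOCK or its relative NPAS2, binds E-box sequences and drives the circadian clock. Its targets include the genes of its own repressors, the PER and CRY proteins, and of the nuclear receptors REV-ERBα and REV-ERBβ, which in turn repress Bmal1, Clock, Npas2 and Nfil3. A further output runs through DBP, TEF and HLF, which bind D-box sequences and activate genes there, and through NFIL3, which represses the same sequences. In muscle this clock is known for setting daily rhythms of glucose and lipid handling and of sarcomere genes.

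The deposited values were estimated counts, which were scaled here to a common library total (CPM). Library totals lay between 12929215 and 19153527 in the vehicle group and between 11506037 and 18969645 in the labelled-knockout group. Of 21844 genes in the table, 13732 had at least 1 CPM in at least 5 of the 10 libraries and were tested. The first principal component held 31.2% of the variance, and all 5 vehicle libraries lay on one side of it and all 5 labelled-knockout libraries on the other. The second held 21.1% and set vehicle libraries 1 and 5 and knockout libraries 1, 4 and 5 towards one end. All of these but knockout library 1 were the lowest of their groups in the summed markers of fibro-adipogenic cells, the connective tissue cells of muscle. The defining transcripts of muscle fibres were abundant in both groups, with 6 markers summing to 66580 to 74300 CPM in vehicle and 59910 to 73980 CPM in labelled-knockout libraries.

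Bmal1 itself is listed as Arntl (ENSMUSG00000055116), and its level comes first. Arntl was at 7.42, 6.39, 6.53, 7.93 and 5.68 CPM in the vehicle libraries and at 18.9, 11.4, 10.96, 11.6 and 13.1 CPM in the labelled-knockout libraries. Every labelled-knockout library was above every vehicle library, and knockout library 1 was the highest. The transcript was 1.88-fold higher in the libraries labelled knockout (log2 change 0.91, SE 0.152, adjusted p = 0.00124, edgeR quasi-likelihood test; exact permutation test of log2(CPM + 1), two-sided, p = 0.00794, the smallest that 5 against 5 allows). A count over the whole gene does not check the deletion, since the floxed exons are not stated in the sources used here. The labels were therefore not checked by this gene, and every direction below is drawn from them. Adjusted p-values throughout are Benjamini-Hochberg values of edgeR's quasi-likelihood test over the 13732 genes, and a gene with a value under 0.05 is called.

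Promoters of some clock genes are shown here, with marked matches to sequences through which BMAL1 and its partners are known to act. The windows run from 250 bases before to 50 bases after a transcription start, 5′ to 3′ on the gene's strand, from RefSeq (GRCm38.p6). Of the 24 tested clock genes counted below, 20 had a window, and only 5 of these windows held CACGTG. Capitals mark matches to the E-box CACGTG, the related AACGTG (or CACGTT), the D-box TTATGTAA (or TTACGTAA) or the REV-ERB and ROR response element, searched on both strands; these motifs share no full match with each other. The first 5 are the clock genes whose window held CACGTG; Per3, with 2 D-boxes, and Arntl, with an element for the receptors that control it, were added after their values were seen. They lie at chr15:81802423-81802722 (plus strand) for Tef, chr3:95882179-95882478 (minus strand) for Ciart, chr11:69098699-69098998 (plus strand) for Per1, chr6:145865371-145865670 (minus strand) for Bhlhe41, chr10:85185005-85185304 (minus strand) for Cry1, chr4:151044616-151044915 (minus strand) for Per3 and chr7:113207261-113207560 (plus strand) for Arntl.
Tef: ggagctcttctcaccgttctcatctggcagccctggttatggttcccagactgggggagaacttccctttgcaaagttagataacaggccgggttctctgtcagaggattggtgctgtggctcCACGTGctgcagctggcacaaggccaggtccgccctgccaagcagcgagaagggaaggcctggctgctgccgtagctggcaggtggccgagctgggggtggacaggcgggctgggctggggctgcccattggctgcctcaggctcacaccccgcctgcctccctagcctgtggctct
Ciart: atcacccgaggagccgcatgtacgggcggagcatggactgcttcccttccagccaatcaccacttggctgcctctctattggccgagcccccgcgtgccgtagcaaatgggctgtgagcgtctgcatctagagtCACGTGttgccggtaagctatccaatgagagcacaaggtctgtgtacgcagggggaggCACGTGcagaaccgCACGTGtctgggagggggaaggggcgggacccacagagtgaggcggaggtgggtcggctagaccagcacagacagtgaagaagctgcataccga
Per1: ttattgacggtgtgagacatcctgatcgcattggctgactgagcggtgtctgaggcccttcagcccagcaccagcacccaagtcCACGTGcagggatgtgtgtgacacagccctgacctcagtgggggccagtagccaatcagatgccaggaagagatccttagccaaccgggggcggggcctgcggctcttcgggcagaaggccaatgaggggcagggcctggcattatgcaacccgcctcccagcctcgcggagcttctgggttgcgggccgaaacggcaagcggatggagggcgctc
Bhlhe41: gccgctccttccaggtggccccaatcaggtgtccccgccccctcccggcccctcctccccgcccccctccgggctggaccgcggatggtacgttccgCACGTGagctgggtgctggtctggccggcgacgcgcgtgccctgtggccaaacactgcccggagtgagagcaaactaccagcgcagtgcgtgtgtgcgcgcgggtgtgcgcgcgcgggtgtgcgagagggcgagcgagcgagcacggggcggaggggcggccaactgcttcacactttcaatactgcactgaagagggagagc
Cry1: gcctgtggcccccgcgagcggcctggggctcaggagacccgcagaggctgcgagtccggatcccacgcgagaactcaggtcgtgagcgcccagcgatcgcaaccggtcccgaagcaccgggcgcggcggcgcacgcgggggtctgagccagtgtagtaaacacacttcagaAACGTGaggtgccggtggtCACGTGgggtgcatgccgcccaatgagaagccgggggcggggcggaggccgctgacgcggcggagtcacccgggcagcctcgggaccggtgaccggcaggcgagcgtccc
Per3: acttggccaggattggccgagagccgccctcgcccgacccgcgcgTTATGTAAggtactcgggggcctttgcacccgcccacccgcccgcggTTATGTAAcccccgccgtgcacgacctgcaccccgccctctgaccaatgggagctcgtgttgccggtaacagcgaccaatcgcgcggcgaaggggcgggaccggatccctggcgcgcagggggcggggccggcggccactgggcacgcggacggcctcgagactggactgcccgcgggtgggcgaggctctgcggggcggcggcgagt
Arntl: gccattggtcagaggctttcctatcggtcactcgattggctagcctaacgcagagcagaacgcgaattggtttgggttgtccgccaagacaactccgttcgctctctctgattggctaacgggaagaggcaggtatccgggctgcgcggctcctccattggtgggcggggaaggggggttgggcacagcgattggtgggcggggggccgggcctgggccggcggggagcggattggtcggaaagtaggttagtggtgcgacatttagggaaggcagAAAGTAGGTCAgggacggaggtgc
Of these genes, Tef, Ciart, Per1, Bhlhe41 and Per3 were lower in the libraries labelled knockout and Arntl was higher, as given below. Cry1, whose window held both CACGTG and AACGTG, did not pass the test.

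In the libraries labelled knockout, 1173 of 13732 genes (8.54%) differed from vehicle, of which 527 (3.84%) were higher and 646 (4.7%) lower. The balance between the directions rests on the scaling: with scaling by column sums only, 755 were higher and 538 lower, and with limma on log2(CPM + 1), 756 and 535. For 947 of the called genes the 5 values of one group lay wholly above those of the other; over all genes tested this was so for 9.68%, with 5.8% lying above and 3.87% below the vehicle values. Most changes were moderate, with 600 called genes under 1.5-fold, while 111 rose and 128 fell by more than 2-fold. Protein-coding genes made up 1076 of the calls. Of 28 genes that passed the filter on low values through 1 group alone, 27 were called, which the filter itself favours. They include 12 genes named below, Npas2, Prss55, Gm40841, Krt18 and Dusp5 (higher) and Gm10032, Themis3, Smpdl3b, Lrtm2, Gm19299, Syt9 and Gm10599 (lower), whose values are given as a description without a p-value. At the edge of the threshold stood Grsf1 just inside (log2 change -0.22) and Hgsnat just outside (adjusted p = 0.0502).

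**Figure D1:**
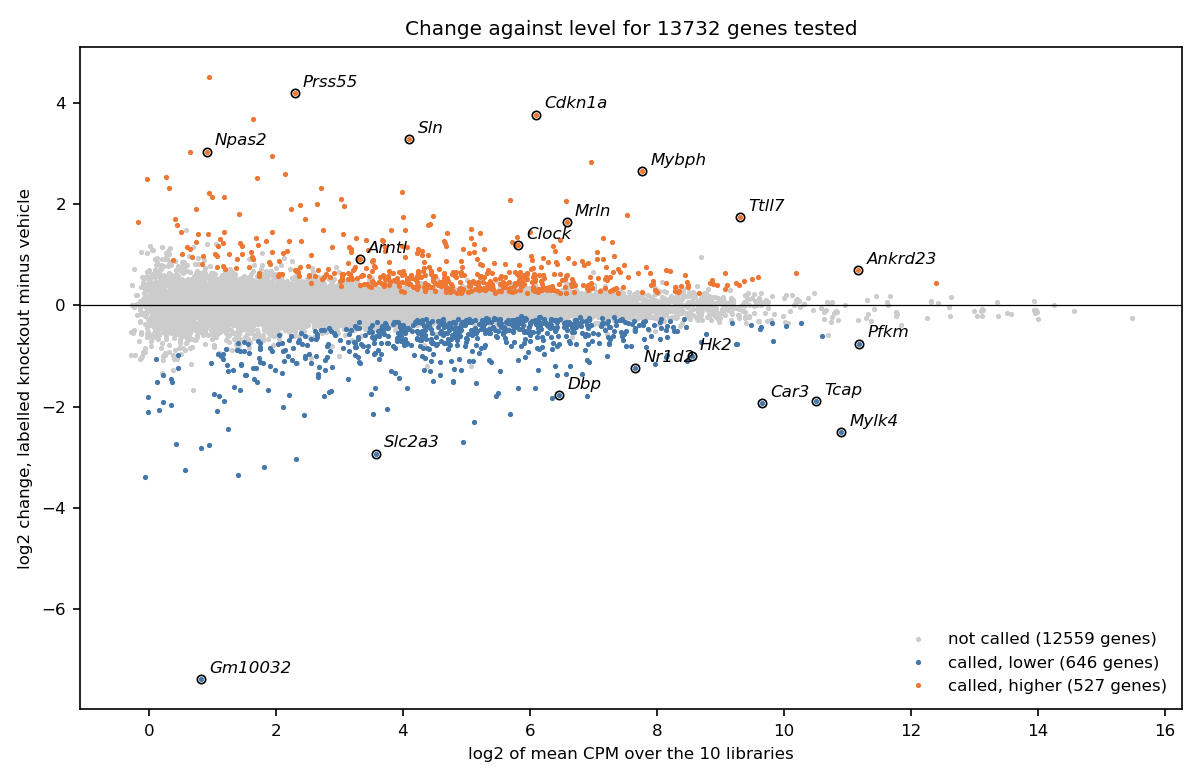
Log2 change (labelled knockout minus vehicle) against the log2 of the mean CPM over the 10 libraries, one point for each of the 13732 genes tested, with the 527 genes called higher and the 646 called lower in colour. Circles mark named genes: the largest rises were in genes of low to middle level, while Mylk4 and Tcap fell at high levels.

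In the activating arm of the clock Arntl and Clock rose in the libraries labelled knockout, Arntl2 did not pass the test, and Npas2 passed the filter through the labelled-knockout group alone. Clock was at 33.4, 32.3, 34.3, 37.6 and 29.3 CPM in the vehicle libraries and at 84.4, 87.3, 69.8, 75.5 and 80.3 CPM in the labelled-knockout libraries. The lowest labelled-knockout library was thus well above the highest vehicle library, and the change was 2.29-fold (log2 change 1.20, SE 0.0755, adjusted p = 2.72e-07). Npas2 was at 0.387, 0.266, 0.731, 0.537 and 0 CPM in the vehicle libraries and at 3.90, 3.65, 1.80, 3.48 and 4.06 CPM in the labelled-knockout libraries. This gene was near its detection limit in vehicle libraries, and knockout library 3 was the lowest of its group. Arntl2, the paralog of Bmal1, was at 2.45 ± 0.491 CPM in vehicle and 2.24 ± 0.685 CPM in labelled-knockout libraries (adjusted p = 0.722).

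The repressors were lower, with 7 of 8 tested genes called lower and none higher, against 4.7% and 3.84% of all genes (median log2 change -0.91, all genes 0.009). Ciart, also known as Chrono, which binds and represses BMAL1, fell most. Ciart was at 7.58, 4.46, 10.4, 5.84 and 6.23 CPM in the vehicle libraries and at 2.37, 2.33, 2.11, 1.30 and 0.813 CPM in the labelled-knockout libraries. All 5 vehicle values exceeded all 5 labelled-knockout values, a fall of 3.99-fold (log2 change -2.0, SE 0.28, adjusted p = 0.000309). Among the period genes, Per2 fell from 44.03 ± 3.00 to 21.6 ± 2.54 CPM (SD, n = 5; log2 change -1.09, SE 0.0915, adjusted p = 3.18e-06). Per3 fell by a similar measure (log2 change -1.08, adjusted p = 2.06e-05) and Per1 by less (log2 change -0.74, adjusted p = 0.00548), and the groups overlapped in neither. The cryptochromes parted: Cry2 fell (log2 change -0.67, adjusted p = 4.07e-05), whereas Cry1 was at 21.6 ± 1.66 CPM in vehicle and 23.2 ± 2.45 CPM in labelled-knockout libraries (adjusted p = 0.833). The difference between the paralogs was not tested. Bhlhe40 and Bhlhe41 (DEC1 and DEC2), repressors that compete for E-boxes, were both lower, at log2 changes of -1.11, adjusted p = 7.43e-06, and -0.42, adjusted p = 0.0294. The groups overlapped in Bhlhe41, and its call was lost without any one of vehicle libraries 1 and 5 and knockout libraries 1, 2 and 3 (adjusted p up to 0.0803).

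The receptor genes Nr1d2, Nr1d1 and Rora, whose products act on the Bmal1 promoter, all fell (median log2 change -0.52). Nr1d2 was at 285, 251, 310.3, 268 and 280.5 CPM in the vehicle libraries and at 138, 114, 142, 127 and 93.8 CPM in the labelled-knockout libraries. This receptor gene, for REV-ERBβ, fell 2.37-fold with no overlap (log2 change -1.24, SE 0.105, adjusted p = 3.57e-06). Nr1d1, for REV-ERBα, fell by less (log2 change -0.52, adjusted p = 0.00171), and so did the activating receptor Rora (log2 change -0.51, adjusted p = 0.0107). Nr1d1 shares exon sequence with Thra on the other strand, and without stated strandedness their reads cannot be told apart.

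The D-box factors moved in opposite directions by role. Dbp was at 120.3, 133, 155, 122 and 142 CPM in the vehicle libraries and at 47.9, 42.8, 43.2, 39.2 and 31.6 CPM in the labelled-knockout libraries. The activator Dbp thus fell 3.42-fold (log2 change -1.77, SE 0.106, adjusted p = 2.06e-07), with the lowest value in knockout library 5. It shares exon sequence with Sphk2 on the other strand. Tef fell from 375 ± 20.2 to 192 ± 5.17 CPM (SD, n = 5; log2 change -1.03, SE 0.0771, adjusted p = 9.95e-07), and Hlf fell with overlapping values (log2 change -0.58, adjusted p = 0.00629). The repressor gene of the same sites rose instead. Nfil3 was at 38.98, 36.1, 26.6, 26.1 and 32.4 CPM in the vehicle libraries and at 83.03, 78.01, 71.5, 71.1 and 77.4 CPM in the labelled-knockout libraries. Its groups lay far apart (log2 change 1.19, SE 0.117, adjusted p = 1.34e-05). Among genes for enzymes that mark or remove clock proteins, the deubiquitinase Usp2 fell from 343 ± 33.6 to 161 ± 17.8 CPM (SD, n = 5; log2 change -1.15, SE 0.104, adjusted p = 6.09e-06). The kinase gene Csnk1e fell as well (log2 change -0.51, adjusted p = 0.00145). Csnk1d, Btrc and Fbxw11 did not pass the test, with log2 changes from -0.03 to 0.24, and Fbxl21 was below the filter. Of 23 clock genes, Npas2 left aside, 18 were called, against 8.54% of all genes, and the plot of the clock genes shows every library.

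**Figure D2:**
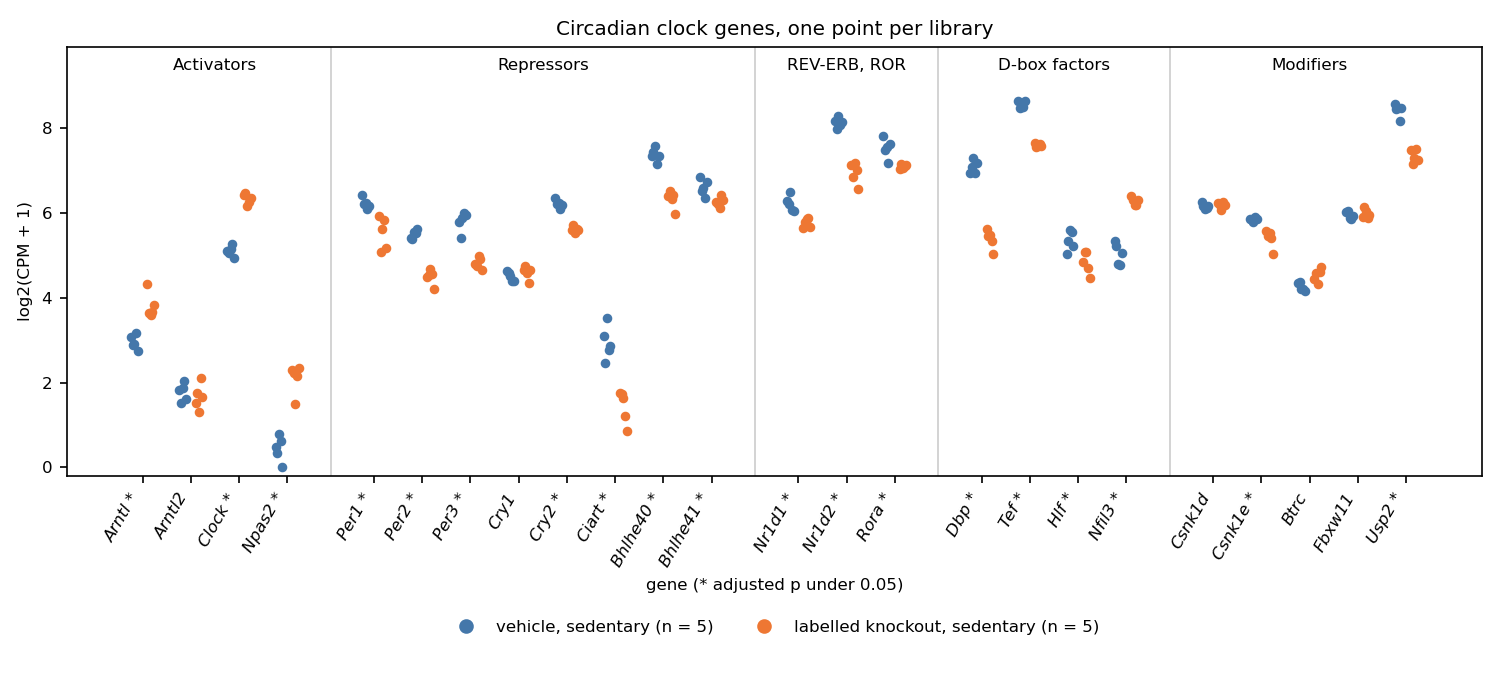
Level of 24 tested clock genes in every library, as log2(CPM + 1), with vehicle libraries in blue and libraries labelled knockout in orange; an asterisk marks an adjusted p under 0.05. Clock, Npas2, Arntl and Nfil3 lie higher in all 5 labelled-knockout libraries, and Per2, Ciart, Nr1d2, Dbp, Tef and Usp2 lie lower in all 5.

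Motifs were counted in the same promoter windows of the 9970 tested genes that had one, as a description without a test. CACGTG stood in 12.1% of 677 windows of lower genes, in 9.19% of 544 windows of higher genes and in 9.84% of all 12788 windows of tested genes. AACGTG or its reverse stood in 4.43%, 3.86% and 5.24% of them. The D-box stood in 18 windows of lower genes (2.66%), belonging to 16 genes, in 0 of the 544 windows of higher genes, and in 0.712% of all. Besides Per3, these 16 genes included Acsm3 (log2 change -1.80), Map2k6, a kinase of the p38 pathway (log2 change -1.04), and Coq10b, a gene of coenzyme Q function (log2 change -1.0), singled out after their values were seen. The REV-ERB and ROR element stood in 2 windows of higher genes, Arntl among them, in 1 of lower genes and in 0.0391% of all. Counted by gene, CACGTG was present in windows of 79 of 485 lower genes (16.29%) and 47 of 389 higher genes (12.08%). It was also present in windows of 1047 of 9096 uncalled genes (11.51%). Lower and higher genes had more windows each, at 1.396 and 1.398, than uncalled genes, at 1.272. The shares by gene were not adjusted for this. Among named genes outside the clock, those with CACGTG in a window included the lower genes Pfkm, Slc16a1, Pcx, Fbp2, Fkbp5, Mgll and Smpdl3b.

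Among the largest rises, Cdkn1a had the smallest p-value. It encodes p21, an inhibitor of cyclin-dependent kinases. Cdkn1a was at 9.59, 9.98, 7.62, 7.63 and 10.2 CPM in the vehicle libraries and at 157, 151, 106, 108 and 116 CPM in the labelled-knockout libraries. The labelled-knockout libraries were 13.6-fold higher, with knockout libraries 1 and 2 above the other three (log2 change 3.77, SE 0.145, adjusted p = 4.56e-09, the smallest adjusted p of all genes). Prss55, a serine protease gene, was close to undetected in vehicle libraries. Prss55 was at 0.541, 0.466, 0.47, 0.775 and 0.183 CPM in the vehicle libraries and at 8.28, 10.4, 10.3, 8.26 and 9.42 CPM in the labelled-knockout libraries. The values had a narrow spread in both groups. The long noncoding RNA gene Gm40841 went from 0.152 ± 0.127 to 3.70 ± 1.82 CPM (SD, n = 5). Krt18 (keratin 18) was at 0.419 ± 0.234 CPM in vehicle and 5.82 ± 4.33 CPM in labelled-knockout libraries, and Dusp5, a phosphatase of ERK kinases, at 0.341 ± 0.29 CPM in vehicle and 2.79 ± 0.921 CPM in labelled-knockout libraries. Lgr6, a receptor for R-spondins, rose at a low level (log2 change 2.95, adjusted p = 2.14e-05). Cilp, a secreted matrix protein gene, rose unevenly. Cilp was at 22.04, 45.8, 27.7, 29.8 and 22.7 CPM in the vehicle libraries and at 488, 217, 104, 156 and 139.7 CPM in the labelled-knockout libraries. Knockout library 1 was far above the others, and all 5 were above vehicle (log2 change 2.84, SE 0.36, adjusted p = 0.000123). Mybph, for a myosin-binding protein of the thick filament, rose from 57.6 ± 14.6 to 378 ± 98.1 CPM (SD, n = 5; log2 change 2.65, SE 0.199, adjusted p = 9.95e-07). It shares exon sequence with Adora1 on the other strand.

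Ttll7, a tubulin-modifying ligase gene, rose at a high level. Ttll7 was at 321, 237, 285, 239.9 and 321 CPM in the vehicle libraries and at 895, 1099, 854, 1002 and 1061 CPM in the labelled-knockout libraries. It was 3.35-fold higher without overlap (log2 change 1.75, SE 0.128, adjusted p = 8.52e-07). Ampd1, the muscle AMP deaminase, rose 1.56-fold (log2 change 0.65, adjusted p = 0.00285).

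Among called genes, the fall with the largest difference in CPM was that of Mylk4, a gene of the myosin light chain kinase family. Mylk4 was at 3853, 3159, 3065, 2865 and 3257 CPM in the vehicle libraries and at 399, 564, 648, 721 and 654 CPM in the labelled-knockout libraries. Knockout library 1 was the lowest, and the highest labelled-knockout value was far below the lowest vehicle value (log2 change -2.50, SE 0.16, adjusted p = 2.83e-07). Car3, the carbonic anhydrase of slow muscle and fat, fell likewise. Car3 was at 1472, 1443, 1284, 1166 and 987 CPM in the vehicle libraries and at 432, 393, 258, 373 and 288 CPM in the labelled-knockout libraries. The fall was 3.79-fold (log2 change -1.92, SE 0.143, adjusted p = 9.65e-07). Slc2a3 encodes the glucose transporter GLUT3. Slc2a3 was at 27.9, 19.2, 19.8, 18.2 and 19.6 CPM in the vehicle libraries and at 2.06, 3.65, 3.52, 2.96 and 2.30 CPM in the labelled-knockout libraries. It fell 7.59-fold, and vehicle library 1 stood above the others of its group (log2 change -2.92, SE 0.179, adjusted p = 2.15e-07).

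Several genes of low level nearly vanished. The long noncoding RNA gene Gm10032 was at 4.33, 2.99, 3.24, 4.05 and 2.93 CPM in the vehicle libraries, while it had no count in 4 labelled-knockout libraries and 1 count in knockout library 5. Against a floor of 3 counts per library it was at least 16.6-fold lower. Themis3, Smpdl3b (a sphingomyelinase-like enzyme), Lrtm2, Syt9 (a synaptotagmin), Gm19299 and Gm10599, like Gm10032, passed the filter through the vehicle group alone and had log2 changes from -3.38 to -2.73. Cacna2d4, an auxiliary subunit of calcium channels, fell (log2 change -3.04, adjusted p = 5.16e-06). Ighg2c, an immunoglobulin constant region gene of B-lineage cells, fell from 6.36 ± 2.92 to 0.706 ± 0.33 CPM (SD, n = 5; log2 change -3.19, adjusted p = 4.74e-05), while 6 lymphocyte markers summed to only 0.851 to 1.93 CPM in vehicle and 0.861 to 2.11 CPM in labelled-knockout libraries. In bulk tissue, fewer cells of a type and less RNA per cell cannot be told apart.

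Other falls had little spread and thus small p-values. Mid1ip1, an activator of acetyl-CoA carboxylase in fat synthesis, fell from 82.99 ± 5.71 to 19.5 ± 4.26 CPM (SD, n = 5; log2 change -2.14, SE 0.115, adjusted p = 1.34e-07). Vps13a, a lipid transfer protein gene, fell from 39.01 ± 1.54 to 16.99 ± 0.9 CPM (-1.26, adjusted p = 1.34e-07). Mlf1 (log2 change -1.79, adjusted p = 1.7e-07), Aebp1, a matrix protein gene (log2 change -1.82, adjusted p = 1.96e-07), and Itpr1, the inositol trisphosphate receptor (log2 change -1.30, adjusted p = 2.06e-07), fell without overlap. Among abundant transcripts, Vdac1, the channel of the outer mitochondrial membrane, fell 1.62-fold (log2 change -0.70, adjusted p = 7.72e-05). Amd1, an enzyme gene of polyamine synthesis, fell 1.52-fold (log2 change -0.61, adjusted p = 0.00392), and its count is uncertain because the near-identical copy Amd2 could take part of its reads.

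**Figure D3:**
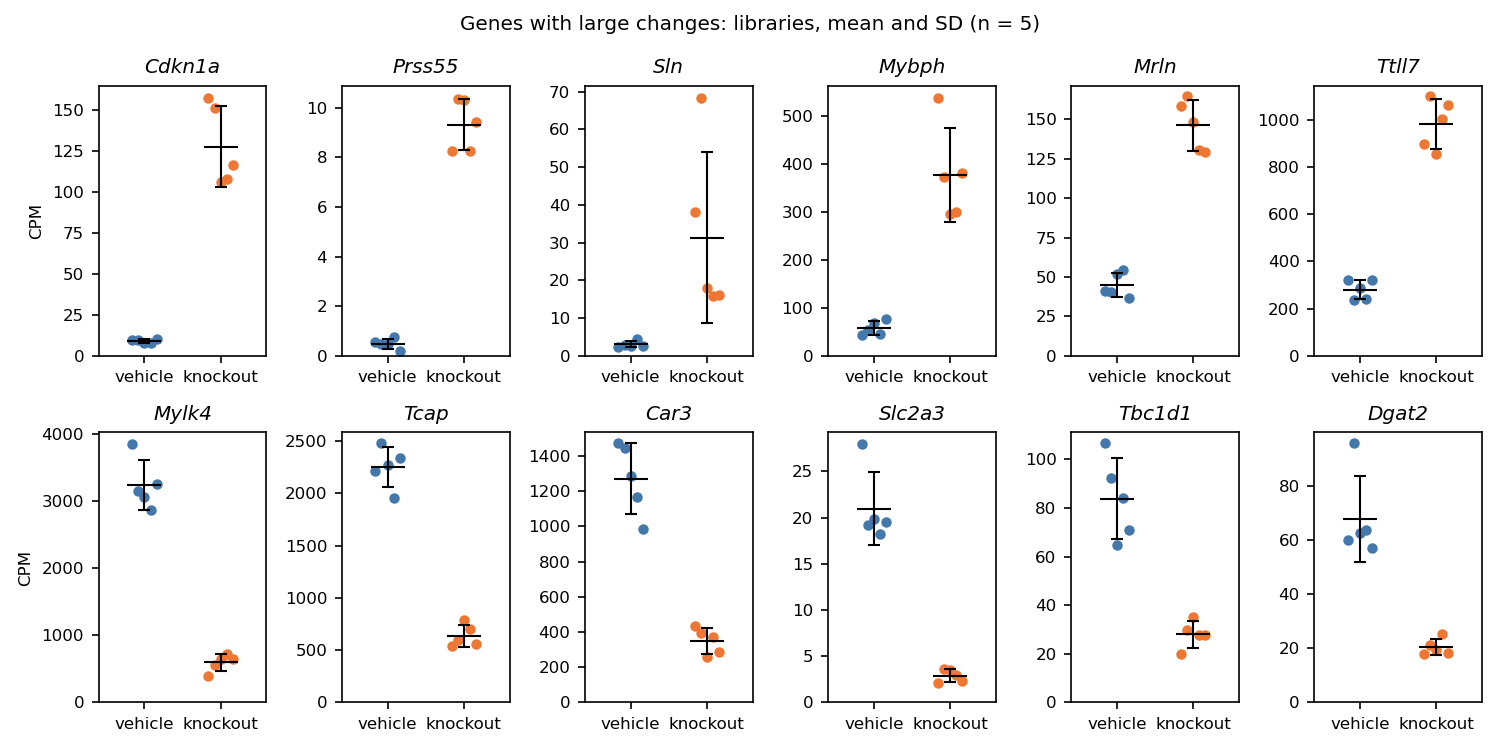
CPM in each library for 12 genes with large changes, with the mean and SD of 5 libraries in black; each panel has its own axis from 0. In all 12 the groups do not overlap, and Sln and Mybph spread most among the labelled-knockout libraries.

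Sarcomere genes did not move as a block. Of 21 tested genes of the Z-disc and titin region, 3 rose and 3 fell, against 3.84% and 4.7% of all genes. Their median log2 change was -0.04, which turned to 0.02 with column sums only. Tcap encodes telethonin, the cap that joins titin ends at the Z-disc. Tcap was at 2219, 2486, 2271, 1957 and 2342 CPM in the vehicle libraries and at 537, 602, 785, 707 and 556 CPM in the labelled-knockout libraries. It fell 3.69-fold (log2 change -1.88, SE 0.121, adjusted p = 2.83e-07). Fhl3 (log2 change -0.80, adjusted p = 0.00202) and Myoz1 (log2 change -0.35, adjusted p = 0.0156) fell too. Ankrd23 and Ankrd1, ankyrin repeat proteins that bind titin, rose (log2 changes of 0.69, adjusted p = 7.52e-05, and 1.16, adjusted p = 0.000951), and Xirp1 rose by a call lost without any one of 7 single libraries, vehicle 2 to 5 and knockout 2, 4 and 5 (adjusted p up to 0.103). Of 15 fast-fibre genes, Mylpf, the fast regulatory light chain, was the only call, at 4438 ± 578 CPM in vehicle and 6269 ± 619 CPM in labelled-knockout libraries (log2 change 0.45, adjusted p = 0.00805). Of 12 slow-fibre genes, Casq2 rose and Mybpc1 fell (log2 change -0.76, adjusted p = 0.00202). The myosin heavy chains Myh1, Myh2, Myh4 and Myh7 did not pass the test, with log2 changes of -0.30, -0.58, -0.11 and -0.51.

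Genes of calcium handling rose where they were called, 5 of 19 tested genes with none lower (median log2 change 0.13). Of all genes 3.84% were higher and 4.7% lower. The largest rises were those of 3 small membrane proteins that inhibit the calcium pump of the sarcoplasmic reticulum. Sln was at 2.40, 2.99, 2.71, 4.41 and 2.75 CPM in the vehicle libraries and at 38.1, 68.2, 18.1, 15.9 and 16.1 CPM in the labelled-knockout libraries. Sarcolipin was 9.77-fold higher, and knockout libraries 1 and 2 stood above the others (log2 change 3.29, SE 0.401, adjusted p = 8.87e-05). Mrln was at 41.3, 40.3, 51.6, 54.3 and 36.5 CPM in the vehicle libraries and at 159, 165, 148, 131 and 129 CPM in the labelled-knockout libraries. Myoregulin was 3.14-fold higher with far less spread (log2 change 1.65, SE 0.0992, adjusted p = 2.06e-07). Phospholamban (Pln) was at 7.35 ± 0.841 CPM in vehicle and 18.5 ± 5.47 CPM in labelled-knockout libraries (SD, n = 5; log2 change 1.27, SE 0.191, adjusted p = 0.000534); it shares exon sequence with Cep85l on the other strand. Asph, which encodes junctin as well as an enzyme (log2 change 0.44, adjusted p = 0.00449), and Stim1, the calcium sensor of the store (log2 change 0.30, adjusted p = 0.0309), rose by less, and the call of Stim1 was lost without any one of vehicle 2 to 4 and knockout 2, 4 and 5 (adjusted p up to 0.0888). Casq2 was at 33.2, 35.1, 33.1, 36.5 and 28.3 CPM in the vehicle libraries and at 68.4, 86.3, 96.1, 107 and 113 CPM in the labelled-knockout libraries. This calcium-binding protein of the reticulum, counted above among slow-fibre genes, was 2.74-fold higher (log2 change 1.45, SE 0.128, adjusted p = 5.14e-06). The pump genes Atp2a1 and Atp2a2 did not pass the test (log2 changes of -0.15 and -0.23). Of 18 ion channel and pump genes, 4 fell, with the potassium channel Kcnc4 first (log2 change -0.83, adjusted p = 2.68e-05), and Atp1b2, a sodium pump subunit, rose. Without vehicle 5 or knockout 2 the falls were 2. Among the falls, the call of Atp1b1 was lost without vehicle 1, 2, 3 or 5 or knockout 1, 2 or 3 (adjusted p up to 0.126). The rises were 0 without vehicle 3 or knockout 1, 2 or 5 (adjusted p of Atp1b2 up to 0.062) and 2 without vehicle 2 or knockout 3.

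Of 13 tested genes that mark denervated or embryonic muscle, 4 rose and none fell, against 3.84% and 4.7% of all genes (median log2 change 0.27). Besides Cdkn1a, these were the acetylcholine receptor subunits Chrna1 and Chrnb1 and the stress gene Gadd45a (log2 change 0.80, adjusted p = 0.000408). Chrna1 was at 16.9, 15.9, 12.2, 11.9 and 14.5 CPM in the vehicle libraries and at 27.6, 41.3, 31.8, 33.8 and 43.9 CPM in the labelled-knockout libraries. The α1 subunit rose 2.41-fold (log2 change 1.27, SE 0.15, adjusted p = 7.04e-05) and the β1 subunit 2.57-fold (log2 change 1.36, adjusted p = 3.93e-05). The δ and ε subunits did not pass the test (Chrnd -0.01, Chrne 0.08 on the log2 scale), Chrng was below the filter, and neither the receptor kinase Musk (-0.07) nor the embryonic myosin Myh3 (0.72) was called. Of 14 myogenic factors, 3 rose and 2 fell. Tead4 was at 3.56, 3.52, 2.77, 3.46 and 3.36 CPM in the vehicle libraries and at 13.02, 13.5, 13.3, 13.5 and 14.2 CPM in the labelled-knockout libraries. This transcription factor of the Hippo pathway rose 3.90-fold with almost no spread among labelled-knockout libraries (log2 change 1.97, SE 0.115, adjusted p = 1.96e-07). Myod1 rose with overlap (log2 change 0.73, adjusted p = 0.0082) and Srf fell (log2 change -0.39, adjusted p = 0.0027). The calls of Myog (higher) and Tead1 (lower) were each lost in fits without single libraries, with adjusted p up to 0.0739 and 0.106. For Myog these were vehicle 1, 4 and 5 and knockout 1 and 5, and for Tead1 vehicle 1, 2, 3 and 5 and knockout 1 to 3.

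Genes of carbohydrate use were lower where they were called. In glucose uptake and glycogen metabolism 4 of 19 fell and none rose, against 4.7% and 3.84% of all genes (median log2 change -0.23). Tbc1d1 was at 107, 92.5, 64.8, 84.2 and 71.05 CPM in the vehicle libraries and at 19.8, 29.7, 35.1, 27.8 and 27.9 CPM in the labelled-knockout libraries. TBC1D1, which holds back the translocation of the glucose transporter GLUT4, fell 3.11-fold, with vehicle library 1 the highest and knockout library 1 the lowest (log2 change -1.64, SE 0.156, adjusted p = 1.01e-05). Hk2 was at 582, 525, 434, 412 and 505 CPM in the vehicle libraries and at 246, 248, 230.4, 252 and 301 CPM in the labelled-knockout libraries. Hexokinase 2, which traps glucose in the cell, fell 2.00-fold (log2 change -1.0, SE 0.12, adjusted p = 7.77e-05). Slc2a4, for GLUT4 itself, was at 739 ± 88.05 CPM in vehicle and 656 ± 17.6 CPM in labelled-knockout libraries (adjusted p = 0.183). Ppp1r3a, which targets a phosphatase to glycogen, and Ugp2, which makes the sugar donor of glycogen synthesis, fell by less (log2 changes of -0.35 and -0.38). The call of Ppp1r3a was lost without any one of vehicle 1, 3 and 5 and knockout 1, 4 and 5 (adjusted p up to 0.0913), and that of Ugp2 without any one of 8 libraries, all but vehicle 4 and knockout 5 (adjusted p up to 0.0954). Without single libraries the count of 4 lay between 2 and 6, and it was 2 without vehicle 1, 3 or 5 or knockout 1 or 4.

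In glycolysis 3 of 16 fell and none rose, against 4.7% and 3.84% of all genes (median log2 change -0.16), while DESeq2 called 6 lower. Pfkm was at 3439, 3126, 2672, 2461 and 2713 CPM in the vehicle libraries and at 1746, 1797, 1581, 1828 and 1952 CPM in the labelled-knockout libraries. Pfkm, the muscle phosphofructokinase that commits sugar to glycolysis, fell 1.68-fold without overlap (log2 change -0.75, SE 0.112, adjusted p = 0.000488). It shares exon sequence with Senp1 on the other strand. Pfkfb1 and Fbp2 fell by calls lost without knockout 2 or 3 for the first and without vehicle 1, 2 or 3 for the second (adjusted p up to 0.0593 and 0.0682). In pyruvate and lactate handling 5 of 17 fell and none rose (median log2 change -0.12). The lactate transporter Slc16a1 (MCT1) fell from 75.5 ± 9.24 to 36.9 ± 5.69 CPM (SD, n = 5; log2 change -1.08, SE 0.121, adjusted p = 4.06e-05). Slc16a3 fell too (log2 change -0.40, adjusted p = 0.0348). Its call was lost without vehicle 1, 2 or 5 or knockout 1, 2, 3 or 4 (adjusted p up to 0.088). Both subunits of the mitochondrial pyruvate carrier fell, Mpc1 (log2 change -0.66, adjusted p = 0.000417) and Mpc2 (log2 change -0.45, adjusted p = 0.013), the second not with column sums only. The phosphatase Pdp1, which activates pyruvate dehydrogenase, fell as well (log2 change -0.38, adjusted p = 0.00816). Pdk4, the kinase that shuts the enzyme, had a log2 change of 0.96 with wide spread, at 272 ± 113 CPM in vehicle and 554 ± 307 CPM in labelled-knockout libraries, and did not pass the test (adjusted p = 0.149). In the citric acid cycle list, Sucla2 rose (log2 change 0.42, adjusted p = 0.00271) and the anaplerotic enzyme Pcx fell (log2 change -0.63, adjusted p = 0.00433), out of 19; without knockout 4, 2 fell.

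Lipid genes were called in both directions. Of 20 genes of triglyceride synthesis and lipolysis, 3 rose and 3 fell, against 3.84% and 4.7% of all genes. Dgat2 was at 60.1, 95.9, 62.8, 63.8 and 56.9 CPM in the vehicle libraries and at 17.98, 21.1, 19.3, 25.5 and 18.3 CPM in the labelled-knockout libraries. DGAT2, which makes triglyceride in its last step, fell 3.46-fold, with vehicle library 2 well above the others (log2 change -1.79, SE 0.14, adjusted p = 1.53e-06). Agpat3, an acyltransferase of phospholipid synthesis, rose 1.96-fold, at 105 ± 5.90 CPM in vehicle and 215 ± 25.9 CPM in labelled-knockout libraries (SD, n = 5; log2 change 0.97, SE 0.101, adjusted p = 2.05e-05). Plin5, which coats lipid droplets beside mitochondria, rose too (log2 change 0.71, adjusted p = 0.0117). The calls of Mgll (lower) and Srebf1 (higher) were lost without any one of 8 libraries, all but vehicle 5 and knockout 4, for the first and of vehicle 1, 3 and 4 and knockout 5 for the second (adjusted p up to 0.13 and 0.0528). In fatty acid uptake and oxidation, 2 of 28 rose and 3 fell, with a median log2 change of 0.03, beside the same shares of all genes. Acadm, the medium-chain dehydrogenase, rose (log2 change 0.40, adjusted p = 0.0106) and Slc25a20, the carnitine carrier, fell (log2 change -0.41, adjusted p = 0.00922). The 3 other calls, Fabp3 (higher), Lpl and Acacb (lower), were each lost without single libraries, with adjusted p up to 0.124. These libraries were vehicle 1, 3, 4 and 5 and knockout 3, 4 and 5 for Fabp3, vehicle 2, 3 and 5 and knockout 1, 2 and 5 for Lpl, and all but vehicle 4 and knockout 4 for Acacb. Without knockout 4, 6 members fell. No gene of branched-chain amino acid breakdown was called by edgeR among 19 (smallest adjusted p = 0.0572); 6 had an unadjusted p under 0.05, DESeq2 called 2, limma-voom 1 and limma on log2(CPM + 1) 0, and edgeR called 1 without vehicle 1 or 4 or knockout 2 or 5.

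Respiratory chain genes showed almost no calls, beside 8.54% called over all genes. None of 35 nuclear genes of complex I and none of 13 mitochondrially encoded genes was called by edgeR, with smallest adjusted p-values of 0.0868 and 0.200 and log2 changes between -0.25 and 0.20. At an unadjusted p under 0.05 there were 2 and 1; DESeq2 called 1 in each list, limma-voom 0 in both, limma on log2(CPM + 1) 1 and 0, and edgeR without knockout 4 called 1 gene of complex I. Of 35 nuclear genes of complexes III to V, Cycs (cytochrome c) was higher (log2 change 0.27, adjusted p = 0.0434), a call lost without any one of 8 libraries, all but vehicle 3 and 4. Among complex I genes of high level, Ndufb9 was at 315 ± 52.7 CPM in vehicle and 359 ± 35.8 CPM in labelled-knockout libraries (adjusted p = 0.493) and Ndufs1 at 312 ± 24.96 CPM in vehicle and 329.9 ± 41.2 CPM in labelled-knockout libraries (adjusted p = 0.934). Among 14 regulators of the endurance programme, 2 fell, against 4.7% of all genes. Nrip1 was at 107, 113, 89.1, 77.1 and 106 CPM in the vehicle libraries and at 36.7, 41.2, 47.99, 44.8 and 40.9 CPM in the labelled-knockout libraries. NRIP1 (RIP140), a corepressor of oxidative genes, fell 2.42-fold (log2 change -1.28, SE 0.121, adjusted p = 9.57e-06). Ppargc1a, for the coactivator PGC-1α, fell 1.46-fold (log2 change -0.55, adjusted p = 0.00471).

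Growth, atrophy and stress genes were called in both directions, and the share called over all genes was 8.54%. Igfbp5, which binds insulin-like growth factors, fell from 760 ± 121 to 469.8 ± 59.2 CPM (SD, n = 5; log2 change -0.76, SE 0.123, adjusted p = 0.00102), 1 of 2 falls among 17 growth genes, of which DESeq2 called 4 lower. The other was Mstn (myostatin), lost without vehicle 1 or 3 or knockout 1, 3 or 4 (adjusted p up to 0.0829). Of 14 atrophy and autophagy genes, the ubiquitin ligase genes Fbxo30 and Fbxo40 rose (log2 changes of 0.47, adjusted p = 0.000497, and 0.40, adjusted p = 0.0117), and Foxo1 and Map1lc3a fell (log2 changes of -0.46, adjusted p = 0.00124, and -0.42, adjusted p = 0.000956). Of 12 glucocorticoid and stress genes, the receptor targets Fkbp5 and Tsc22d3 fell (log2 changes of -0.54, adjusted p = 0.0123, and -0.49, adjusted p = 0.0157), and Angptl4 was higher by a call lost without vehicle 2, 3, 4 or 5 or knockout 3 or 4 (adjusted p up to 0.0748). None of 15 MHC and interferon genes was called, with a smallest adjusted p of 0.322 by edgeR; 0 had an unadjusted p under 0.05, and DESeq2, limma-voom and limma on log2(CPM + 1) called 0. Of 11 hypoxia genes Egln3, an oxygen-sensing hydroxylase, fell by a call lost without vehicle 2, 3 or 5 or knockout 1 or 2. Of 15 chaperones Hspb8 rose by a call lost without knockout 1 or 2 (adjusted p up to 0.0699 and 0.0528).

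**Figure D4:**
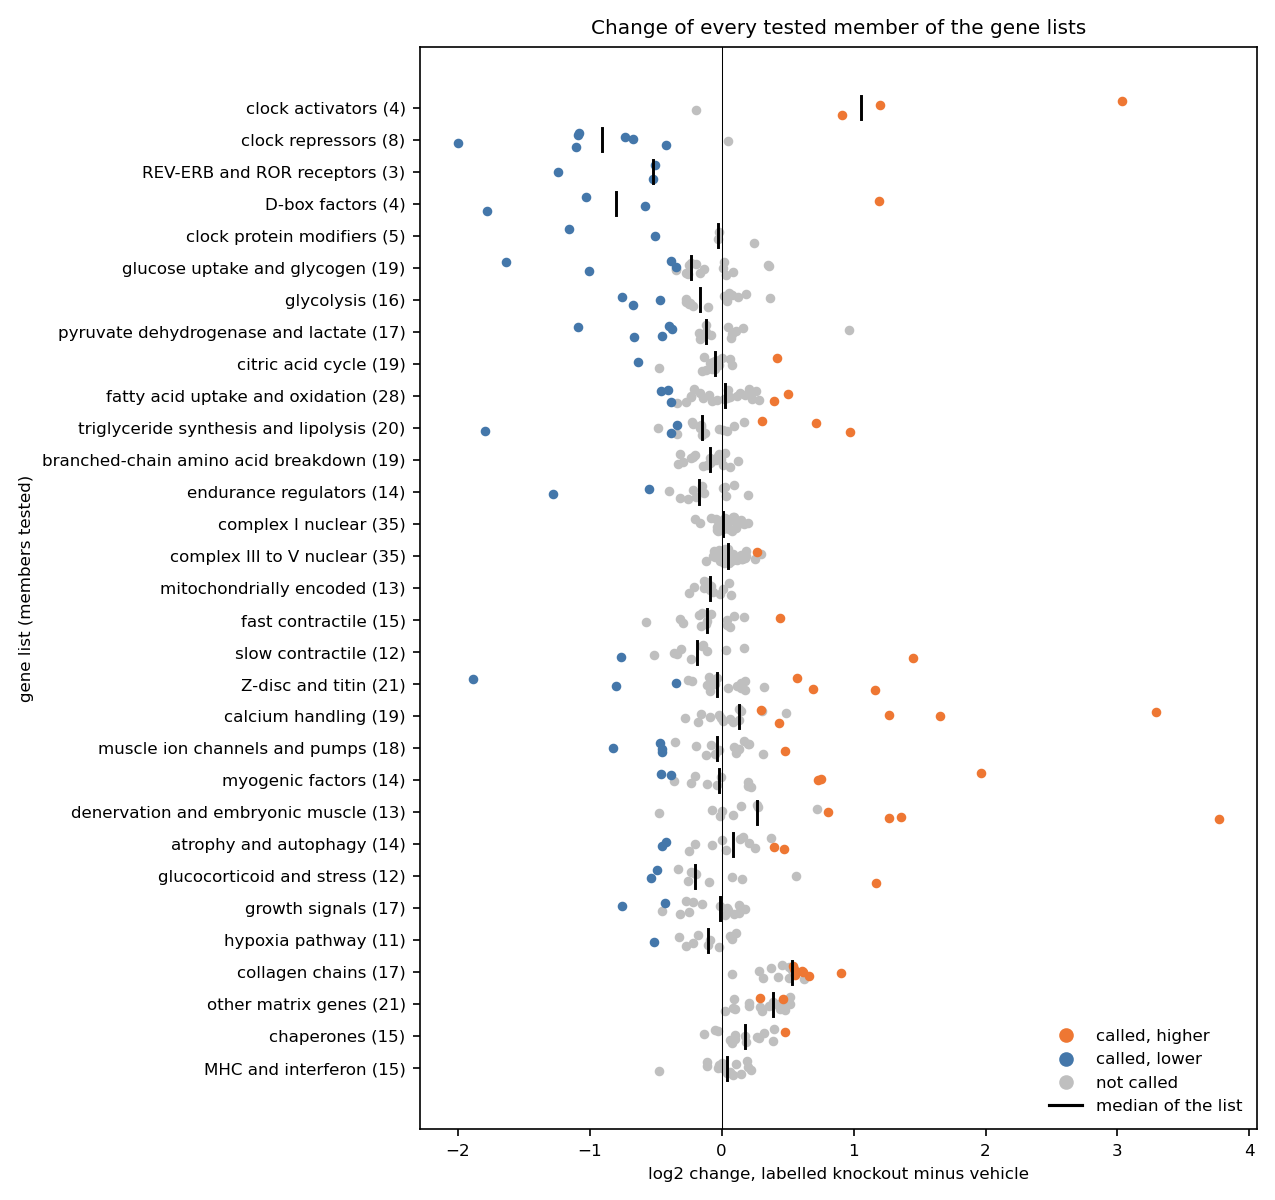
Log2 change of every tested member of the 31 gene lists, one point per gene, coloured where the gene was called, with a black bar at the median of each list and the number of tested members in brackets. The medians of clock activators, clock repressors and D-box factors lie farthest from 0, collagen chains lie above 0 in all 17 members, and respiratory chain lists lie close to 0.

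Of 17 collagen chains 7 rose and none fell, against 3.84% and 4.7% of all genes, and all 17 had a positive log2 change (median 0.53). Col3a1 was at 70.5, 139.9, 99.6, 112 and 58.8 CPM in the vehicle libraries and at 189.6, 246, 193, 177 and 128 CPM in the labelled-knockout libraries. Col3a1, a fibrillar chain, rose with overlapping groups, since knockout library 5 lay below vehicle library 2 (log2 change 0.91, SE 0.193, adjusted p = 0.00764). Col4a1 and Col4a2, the basement membrane chains, rose without overlap (log2 changes of 0.61, adjusted p = 0.000797, and 0.61, adjusted p = 0.000178). Col5a3, Col1a1, Col1a2 and Col6a3 were also called, the last 3 by calls lost without single libraries (adjusted p up to 0.128). The count depended on single libraries. Without 1 library it lay between 4 and 10, and it was 4 without vehicle 1, 3 or 5 or knockout 2, 3 or 4. Of 21 other matrix genes all had a positive log2 change (median 0.39), but only Thbs4 and Timp3 were called, and the count was 0 or 1 without any single library other than vehicle 4, and 4 without vehicle 4.

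Vehicle libraries 1 and 5 and knockout libraries 4 and 5, the lowest of their groups in the summed markers of fibro-adipogenic cells, which make collagen, were also the lowest of their groups in Col3a1. None of 6 fibro-adipogenic markers (Pdgfra, Dcn, Lum, Ly6a, Cd34 and Dpt) was called by edgeR, DESeq2, limma-voom or limma on log2(CPM + 1), and 0 had an unadjusted p under 0.05; all had a positive log2 change (median 0.21), and their sum was at 989 to 2203 CPM in vehicle and 1189 to 2259 CPM in labelled-knockout libraries. Macrophage markers, all 8 positive and none called by any of these (0 at an unadjusted p under 0.05), summed to 58.02 to 239 CPM in vehicle and 92.8 to 258 CPM in labelled-knockout libraries, and tenocyte markers to 28.8 to 54.1 CPM in vehicle and 39.02 to 93.4 CPM in labelled-knockout libraries. Of the latter Tnmd was called (log2 change 0.91, adjusted p = 0.0454), but not without any one of vehicle 1, 2, 4 and 5 and knockout 1, 2 and 4. With the summed fibro-adipogenic markers as a covariate, 9 of 17 collagen chains were called. Of all 13732 genes, 1726 were called in that fit, against 1173 in the main fit. Without vehicle libraries 1 and 5 and knockout libraries 4 and 5, the lowest in these markers, 3 chains were called, beside 732 of all genes. Fewer libraries entered that last fit. Both settings were chosen after seeing the data. The part of fibro-adipogenic cells in the collagen values was not tested.

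**Figure D5:**
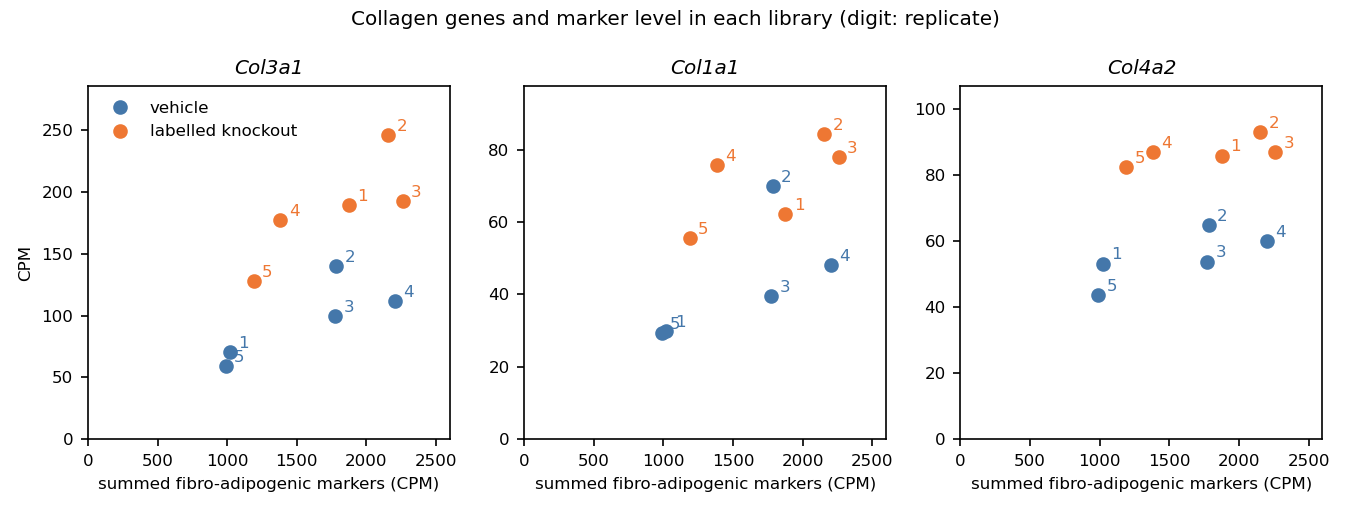
CPM of 3 collagen genes against the summed CPM of 6 fibro-adipogenic markers in each library, with the replicate number beside each point. For Col3a1 the libraries with the lowest marker sums, vehicle 1 and 5 and knockout 4 and 5, are the lowest of their groups, and for Col4a2 all 5 labelled-knockout libraries lie above all 5 vehicle libraries.

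Calls among markers of other cell types are given beside the 8.54% called over all genes. Of the 13 lists of cell type markers, the Schwann cell gene Cnp fell (log2 change -0.73, adjusted p = 0.00235), and, besides Tnmd and Mylpf named above, no further marker was called. Smooth muscle markers summed to 404 to 498 CPM in vehicle and 497 to 647 CPM in labelled-knockout libraries, without a call by the same tools (2 of 4 at an unadjusted p under 0.05). Neutrophil markers, with 3 rows in the table, summed to at most 1.90 CPM, and 4 cardiac markers to at most 6.52 CPM. Their part in the results was not tested.

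The trained libraries, which share no sample with this comparison, gave values of the same genes in other muscle. One vehicle-trained library, number 2, stood far from its group, with Arntl at 132 CPM against 6.32 to 6.68 CPM in the other 4, and pairs of knockout-trained libraries that differed by little more than sampling noise were counted as 1 sample each. Without that library, 366 of 13959 genes (2.62%) differed between knockout and vehicle in trained muscle, and with it 27 of 14068 (0.192%). Without it, 485 of the 521 genes called higher in sedentary muscle and tested there had a log2 change of the same sign (49.7% of all genes were higher), and 586 of 644 called lower (50.3% of all were lower). Of these, 131 and 157 were called in the same direction and none in the opposite one. With it, 418 of 521 and 562 of 644 had the same sign. Of the 18 called clock genes, Npas2 left aside, 12 were also called in trained muscle without that library. Arntl was not among the 12, with a log2 change of 0.81 there (adjusted p = 0.0874, edgeR over the genes tested in trained muscle). With vehicle-trained library 2 kept, its log2 change was -1.58. Cdkn1a lay at 7.57 to 11.3 CPM in the other 4 vehicle-trained libraries and at 86.9 to 207 CPM in the knockout-trained samples. Mylk4 lay at 2145 to 3520 CPM and 240 to 382 CPM, and Slc2a3 at 16.2 to 22.3 CPM and 1.20 to 2.90 CPM. In vehicle-trained library 2, left out of these ranges, Cdkn1a, Mylk4 and Slc2a3 were at 801, 50.3 and 11.4 CPM. For the collagen genes Col4a1 and Col3a1 the ranges overlapped in trained muscle. Unlike in sedentary muscle, they reached lower in the knockout-trained samples at either end. Col4a1 lay at 75.7 to 110.4 CPM in vehicle-trained and 68.04 to 85.5 CPM in knockout-trained samples, and Col3a1 at 107 to 233 and 78.4 to 137 CPM. Whether the effect itself differed between sedentary and trained muscle was not tested.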

How the data were processed

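Per the labels, RNA was taken up in Trizol, cleaned on a Qiagen column and sequenced from Illumina kit libraries. The submitters' processing notes name STAR 2.7.8a, Partek and DESeq2 and the builds mm10 and GRCm39, without role or order; annotation and strandedness are not given in the sources used here. The deposited values, although named CPM, were estimated counts per gene: columns summed to different totals (median 15041320) and 72.0% of values were whole. They were rounded for testing. CPM was computed from column sums.

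edgeR 4.0.16 (R 4.3.3) fitted the 10 sedentary libraries alone by the quasi-likelihood test with TMM scaling and 2 group means, two-sided, without a block, at a Benjamini-Hochberg threshold of 0.05. No pair among the 45 of these libraries was near sampling noise. Changes of 2-fold and 4-fold, in 100 genes each, were simulated together among 13732 genes. The test recovered 80 of the first and 98 of the second, with 9 false calls in all. Fits with DESeq2 1.42.0 and limma 3.58.1, other scalings, other filters, a replicate block and each library left out were alternatives. Same-numbered libraries did not deviate together (correlations from -0.192 to 0.308), so the numbers were not taken to pair samples.

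The members and the 31 gene lists and 13 marker lists were chosen with earlier results of these data known, so lists are described by counts and medians without a test. The text names all clock genes; the 10 largest rises and 10 largest falls among called genes without overlap; the 10 smallest p-values; the 10 largest CPM differences; and up to 4 called members of each list in each direction, or the 2 of highest level where none was called. Of the lists, 4 members are not reported here and are left out of list counts and of this choice. Other members named were chosen after their values were seen. GENCODE M21 was used for gene types and overlaps only: 41 of 133 named genes share exon sequence with another annotated gene. Among them, Arntl, Dbp, Cry2 and Cdkn1a do so with a gene on the other strand and Ankrd23 with one on its own. Without strandedness such counts are uncertain.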

Additional observations from a re-analysis of the deposited data

Results flagged for a closer look

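In a group of 5 libraries, 1 value lay far from the other 4 (a gap over 0.71 of the group's range) in 16 of 292 groups examined, and chance alone gives about 1 in 20, or 14.6. Among clock genes these were Arntl at 18.87 CPM in knockout library 1, Npas2 at 1.801 CPM in knockout library 3 and Usp2 at 285.7 CPM in vehicle library 4. Of the genes with large changes, they were Gm40841 at 6.906 CPM in knockout library 1, Gm10032 at 0.06774 CPM (1 count) in knockout library 5, Slc2a3 at 27.92 CPM in vehicle library 1 and Tead4 at 2.767 CPM in vehicle library 3. Metabolic genes among them were Fbp2 at 9.436 CPM in knockout library 1, Sucla2 at 363.3 CPM in vehicle library 4, Dgat2 at 95.92 CPM in vehicle library 2 and mt-Cytb at 2.26e+04 CPM in vehicle library 5. The remaining genes were Fhl3 at 301.2 CPM and Myod1 at 63.42 CPM in vehicle library 1, Atp1b1 at 362.9 CPM in vehicle library 2 and Srf at 64.94 CPM in vehicle library 5. The summed tenocyte markers stood at 93.43 CPM in knockout library 4.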

How the results depend on the processing

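Of the 119 called genes named by the rules above, none changed sign in any of 23 settings, 84 kept the call in all of them, and 24 lost it without 1 library. The lowest adjusted p of those 24 with all libraries was 0.0186, and the highest after leaving out 1 library was 0.147. Leaving out 1 library gave between 952 and 1087 calls in sedentary muscle, with 422 to 495 higher and 515 to 626 lower, and a difference of Arntl in log2(CPM + 1) between 0.718 and 0.901. With the fibro-adipogenic marker sum as a covariate, 812 genes were higher of 1726 called. Without the 4 libraries lowest in these markers, 732 were called, 321 higher and 411 lower; fewer samples entered that fit. The replicate block over label numbers called 1174 genes, 1063 of them among the 1173, and 12 collagen chains; paired by number, the exact test of Arntl gave 0.846 with p = 0.0625, the smallest that 5 pairs allow. In trained muscle 27 genes were called, 366 without vehicle-trained library 2 and 206 with all 10 trained libraries taken as separate. List counts moved by over 1.5 times in places. With DESeq2, lower calls were 6 in glycolysis, 4 in growth signals, 4 in glucocorticoid and stress and 2 in the citric acid cycle, and higher calls were 4 in other matrix genes, 2 in complexes III to V and 2 in ion channels and pumps. With column sums only, they were 1 lower in growth signals and 2 higher in each of the last 2 lists. With the replicate block, they were 2 lower in glucose uptake and glycogen, 1 lower in myogenic factors, 1 higher in fatty acid uptake and oxidation, 6 higher in other matrix genes and 0 in complexes III to V. Without 1 library, 1 member was higher in glucose uptake and glycogen (vehicle 1) and in glycolysis (vehicle 5), 1 fast-fibre gene was lower (knockout 4) and 2 chaperones were higher (vehicle 3). Some genes without a call changed sign near 0. Csnk1d had a log2 change of 0.03 with column sums only, 0.03 with limma on log2(CPM + 1) and 0.01 with the covariate. Fbxw11 had 0.04, 0.04 and 0, and 0.05 without the 4 libraries. Ivd had 0.05, 0.05 and 0.04, 0.01 with upper-quartile scaling and 0 with a filter of 5 CPM. Ndufs1 had -0.06 without the 4 libraries. Without 1 library, the range was -0.05 to 0.01 for Csnk1d and Fbxw11, -0.05 to 0.03 for Ivd, -0.03 to 0.11 for mt-Cytb, -0.01 to 0.11 for H2-K1, 0 to 0.12 for Acadsb and -0.05 to 0.1 for Ndufs1. The cause of these changes was not tested. At these depths a change below 1.5-fold was called for 600 genes, and genes under 1 CPM were not tested.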
